A study of Mus musculus with 163 samples.

Results

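The calcium release and entry genes of the mouse oocyte were examined as 9 genes picked by symbol, which were Itpr1, Itpr2, Itpr3, Trpm7, Cacna1h, Stim1, Orai1, Atp2a2 and Camk2g. Each symbol was matched through its Entrez identifier to 1 row of a gene table, and these were 9 of its 21950 genes. Single mouse oocytes had been profiled with Smart-seq2, an RNA-seq protocol that copies polyadenylated transcripts of a single cell along their length. The oocytes were sampled at 2 stages, during growth (GROs, growing oocytes) and at the end of it (FGOs, fully grown oocytes). The study compared oocytes made in culture with oocytes grown in the ovary, and it divided the culture into IVP, which makes primordial germ cell-like cells from stem cells, IVD, in which germ cells form oocytes beside gonadal somatic cells, and IVG, in which follicles grow.

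The 23 iPSC-derived GROs and 24 iPSC-derived FGOs came from a single line, BVSC-iPSC, with reporters for Blimp1 (Venus) and Stella (ECFP), so that this source is 1 line. Its primordial germ cell-like cells were aggregated with somatic cells from E12.5 female gonads of outbred Swiss Webster mice, so that these oocytes grew beside somatic cells of another mouse stock. Residual germ cells of the gonads could remain in such aggregates. The 24 gonad-derived GROs and 24 gonad-derived FGOs came from E12.5 gonads that were dissociated and aggregated with all of their cells before the same IVD. The 24 FGOs labelled as 6 dpp came from follicles dissected at 6 days post partum and grown by IVG, and the iPSC- and gonad-derived FGOs also passed through IVG, which was longer for the iPSC-derived follicles. The 24 in vivo GROs and 20 in vivo FGOs were taken from mice without culture, and the strain and age of their donors are not given in the sources used here. The paper reports that its iPSC- and gonad-derived GROs were larger than its in vivo GROs. The part of oocyte size in the ratios that involve GRO groups was not tested.

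At fertilisation the sperm brings a phospholipase into the egg that forms inositol trisphosphate (IP3), and IP3 opens receptors of the endoplasmic reticulum, so that calcium is released in repeated waves. Channels of the plasma membrane let calcium in from outside, a pump returns it to the store, and the waves are read by calmodulin-dependent kinase II, which starts the exit from metaphase. Transcripts for this machinery are stored during oocyte growth, and the IP3 receptor encoded by Itpr1 is the form best known from mouse eggs.

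Levels are given as counts per 1000000 reads (CPM). The pooled CPM of a group divides the summed reads of its oocytes by their summed libraries, and its exact Poisson 95% interval covers counting error only. A library held between 2170106 and 13692528 reads, with a median of 6925374, and the 7 pooled groups held between 144958955 and 166180270. The labels name no animal or culture behind an oocyte, so each group counts as 1 sample, no comparison has a replicate check and no test was run. CPM is relative to the other transcripts of the same oocyte and does not give molecules per oocyte. All 12 oocyte markers examined, among them Gdf9, Zp3 and Ddx4, were above 1 pooled CPM in every group. The 10 granulosa markers in the table summed to a median of 43.0 to 50.2 CPM per oocyte in the 3 GRO groups and of 83.7 to 112 CPM in the 4 FGO groups. Cyp19a1 and Nr5a2 made up 82.9% to 92.1% of the pooled sum in GROs and 55.4% to 93.9% in FGOs, and of these Cyp19a1 was higher and Nr5a2 lower in the FGOs than in the GROs of each of the 3 sources with both stages. The other 8 markers summed to a median of 2.86 to 5.91 CPM in GRO groups and of 3.78 to 14.7 CPM in FGO groups. The summed granulosa markers of 1 of the 6 dpp FGOs, the oocyte numbered 12, reached 1593 CPM, of which 1467 came from those 8 markers.

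Per kilobase of counted exon, Camk2g and Orai1 were the most abundant of the 9 genes in all 7 groups, with Orai1 first in iPSC-derived and gonad-derived GROs and Camk2g first in the other 5 groups. Camk2g stood at 61.1 to 97.7 pooled RPKM (CPM per kilobase) in GROs and at 104 to 120 in FGOs, whereas Orai1 stood at 78.4 to 95.5 in GROs and at 63.2 to 81.7 in FGOs. Atp2a2 followed with 13.7 to 23.0 pooled RPKM and Itpr2 with 13.0 to 23.0. Trpm7, Cacna1h and Itpr1 lay between 2.00 and 11.9, Itpr3 between 0.273 and 1.60, and Stim1 between 0.0184 and 0.205. The counting used 1 transcript model per gene, and that model was shorter than the longest annotated coding transcript for Itpr1 (44.9% of its length), Trpm7 (39.9%) and Stim1 (60%), so reads from the remaining exons of these 3 genes were not counted. For the other 6 genes the counted length was 104% to 126% of that transcript.

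**Figure D1:**
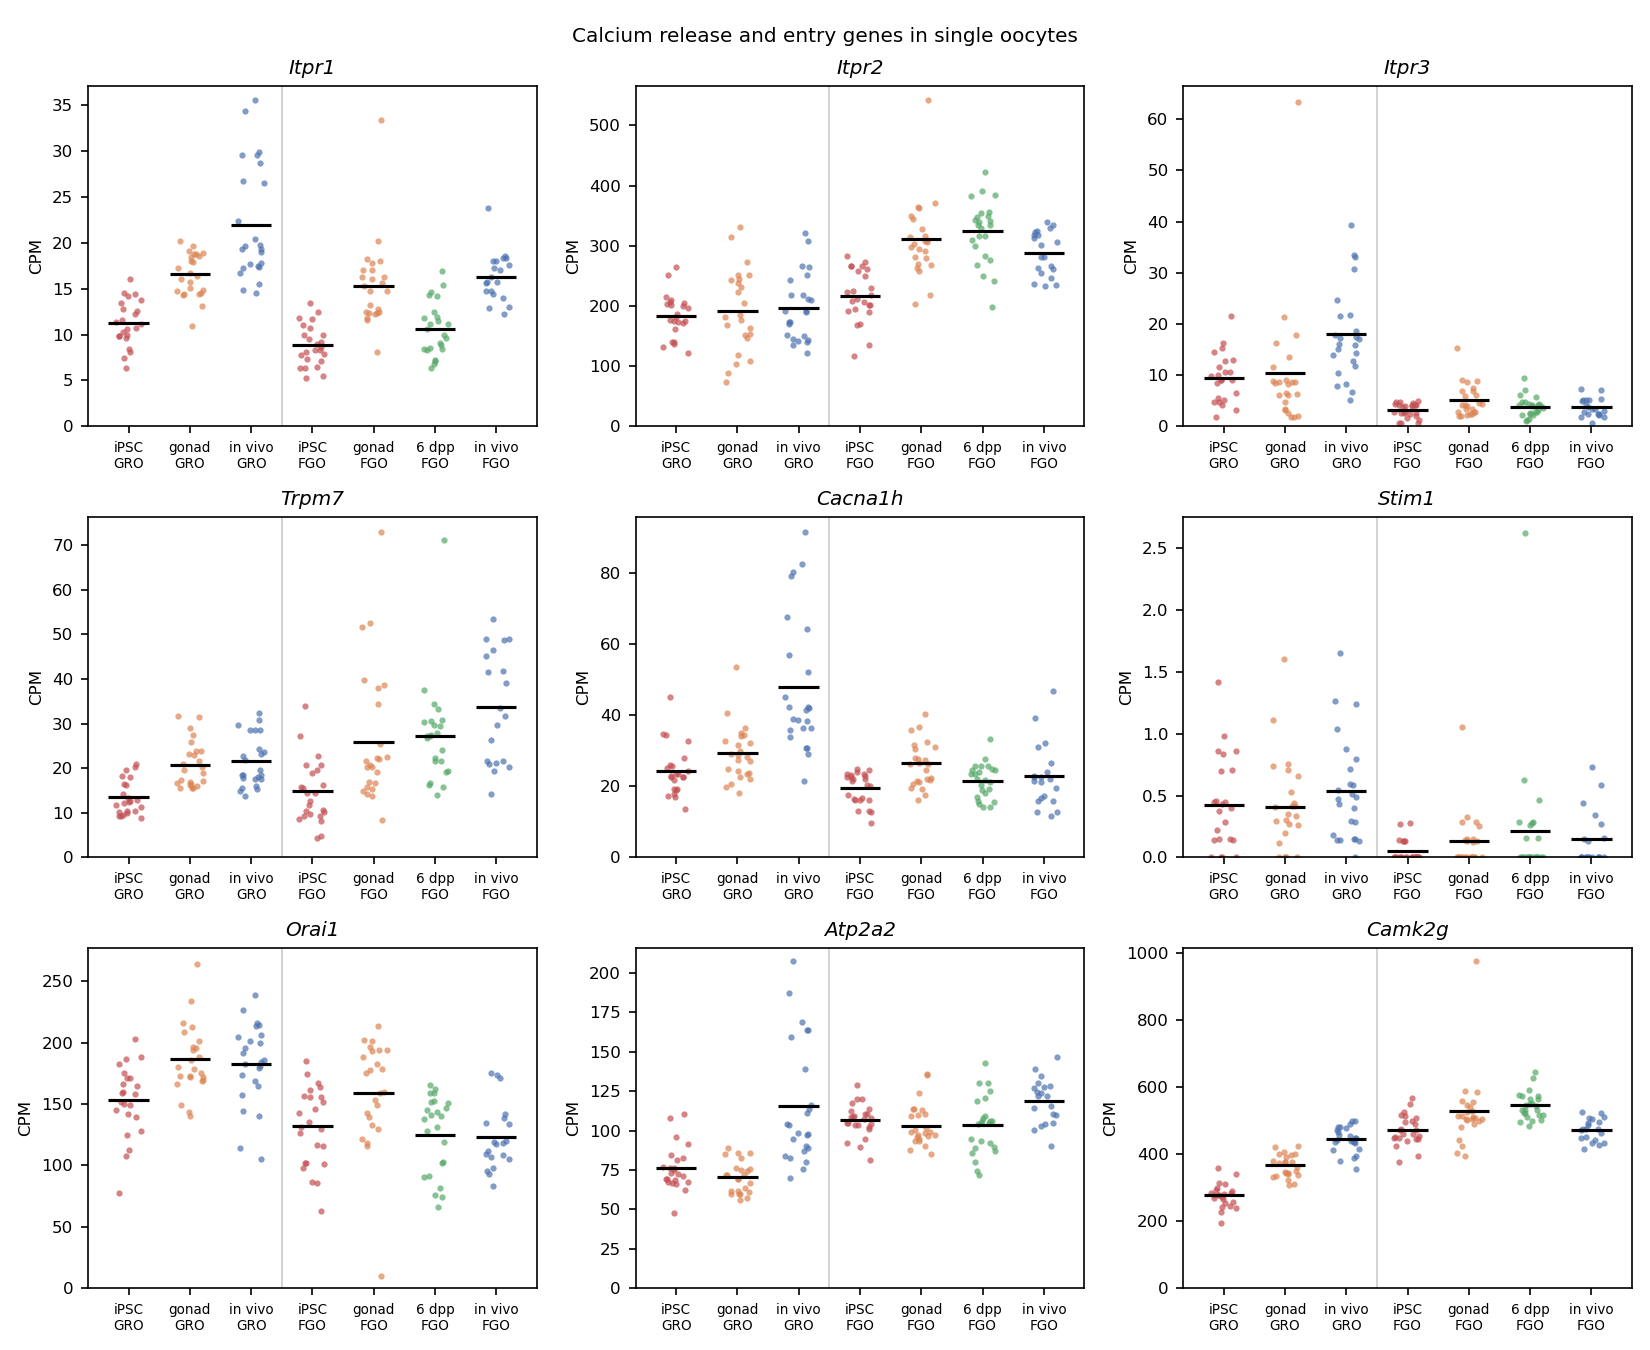
CPM of each of the 9 genes (y axis, linear and from 0) in every oocyte (points) of the 7 groups (x axis), with the pooled CPM of the group as a black bar. Itpr3 was lower and Itpr2 higher in FGOs than in GROs of every source, Camk2g was higher at each step from iPSC-derived to gonad-derived to in vivo GROs, and 1 gonad-derived FGO lay near 0 for Orai1 at 9.92 CPM.

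The IP3 receptor genes Itpr1, Itpr2 and Itpr3 encode subunits of the channel that releases calcium from the endoplasmic reticulum. Per counted length, Itpr2 made up 68.0% to 89.4% of the summed Itpr signal in the 7 groups, Itpr1 9.27% to 24.2% and Itpr3 1.33% to 7.82%. The share of Itpr2 was the largest in every oocyte of every group, with 49.7% as its lowest value over all oocytes, in an in vivo GRO. The pooled share of Itpr2 was lowest in in vivo GROs at 68.0% and highest in 6 dpp FGOs at 89.4%. The counted model held 44.9% of the longest coding transcript for Itpr1, against 121% for Itpr2 and 126% for Itpr3. Which exons of Itpr1 were counted is not known, so the shares do not settle which receptor transcript was most abundant.

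**Figure D2:**
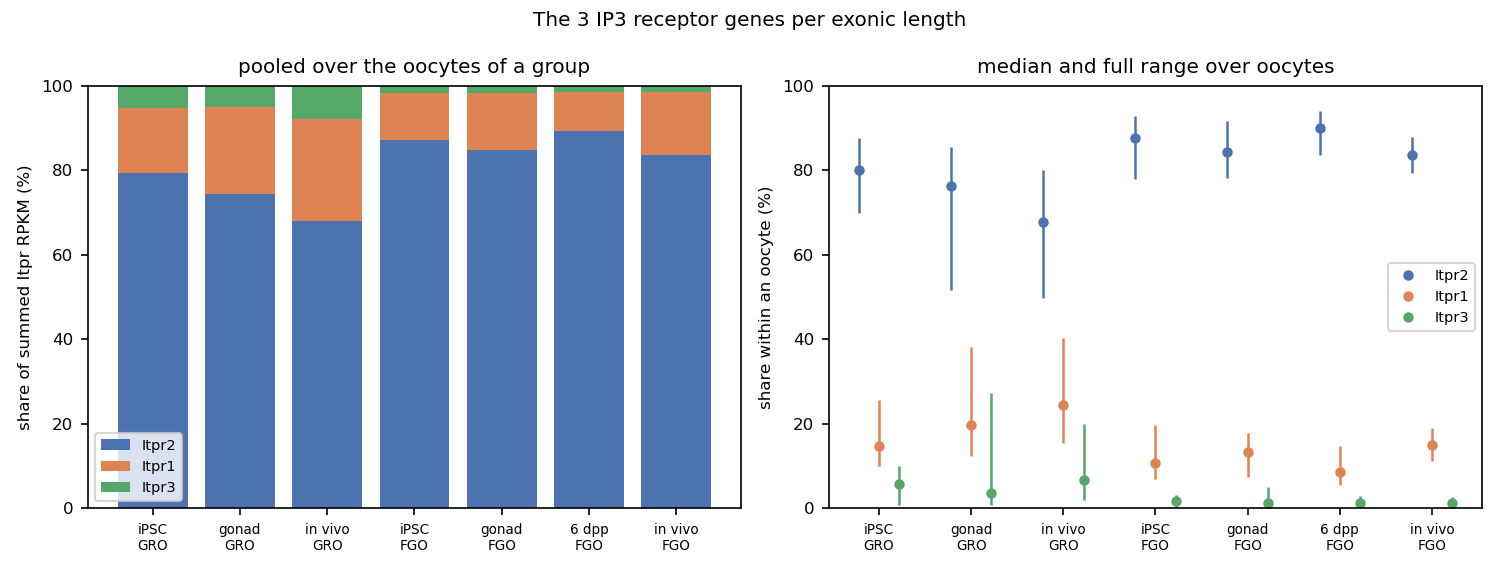
Share of each IP3 receptor gene in the summed RPKM of the 3 genes (y axis, %), pooled by group as stacked bars on the left, and within single oocytes as the median (point) and full range (line) on the right. Itpr2 lies above the other 2 genes throughout, and the range of Itpr3 narrows from GROs, where it reaches 27.3%, to FGOs, where it stays at or under 4.93%. Itpr1 was counted over a model of only 44.9% of its longest coding transcript.

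Itpr2 and Itpr3 went opposite ways between GROs and FGOs, and their promoters are shown because of that. RefSeq places Itpr2 (Entrez 16439) on the minus strand at chr6:146108299-146502258 of GRCm38.p6 and Itpr3 (Entrez 16440) on the plus strand at chr17:27057002-27122223. The promoters run from 250 bases before to 50 bases after a RefSeq transcript start, which is at 146502223 for Itpr2 and at 27057304 for Itpr3, inside the gene spans just given. They lie at chr6:146502174-146502473 on the minus strand and at chr17:27057054-27057353 on the plus strand. The sequences are written 5′ to 3′ with each CG dinucleotide in capitals.
Itpr2: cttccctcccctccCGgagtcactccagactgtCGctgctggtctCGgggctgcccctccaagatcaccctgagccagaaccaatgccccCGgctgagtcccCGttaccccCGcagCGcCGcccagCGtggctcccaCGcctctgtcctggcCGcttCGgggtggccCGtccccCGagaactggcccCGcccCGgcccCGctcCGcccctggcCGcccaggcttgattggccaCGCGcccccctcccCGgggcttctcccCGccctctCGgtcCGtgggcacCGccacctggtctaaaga
Itpr3: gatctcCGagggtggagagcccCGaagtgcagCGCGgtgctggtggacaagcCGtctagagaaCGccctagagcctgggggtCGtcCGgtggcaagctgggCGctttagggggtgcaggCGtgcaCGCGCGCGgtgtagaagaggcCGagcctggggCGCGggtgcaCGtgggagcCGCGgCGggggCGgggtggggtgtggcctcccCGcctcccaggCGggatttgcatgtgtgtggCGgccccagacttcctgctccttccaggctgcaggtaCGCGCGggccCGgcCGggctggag
The Itpr2 promoter held 26 CG dinucleotides and the Itpr3 promoter 30, against a median of 7 over the 32851 RefSeq promoters of this length. Promoters with at least 26 made up 16.9% of all, and those with at least 30 made up 11.7%. The letters TATAAA were found on neither strand of either window, while 13.6% of all promoters hold them on 1 strand or the other. Trpm7, Stim1 and Orai1 also had an entry, with 35, 38 and 36 CG dinucleotides and no TATAAA, so that 5 of the 9 genes were matched. Itpr1, Cacna1h, Atp2a2 and Camk2g had none.

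On the scale of log2(pooled CPM + 0.5), used for every ratio here, Itpr3 had the largest difference of the 9 genes between stages in vivo and in the iPSC source. It did so in the gonad source too, but not without the GRO numbered 7 described below, and without the pseudocount Stim1, at far fewer reads, was further apart in both cultured sources. In vivo it was at 18.1 pooled CPM in GROs (interval 17.5 to 18.8), where single oocytes had 5.13 to 39.3 CPM with a median of 16.6. In vivo FGOs were at 3.77 pooled CPM (3.46 to 4.10), and their oocytes ran from 0.688 to 7.37 CPM with a median of 3.39. The pooled level was thus 4.81-fold lower in FGOs, 15 of the 20 FGOs lay below every in vivo GRO, and the interquartile ranges did not meet. The log2 ratio was -2.13, and 1.56% of the 13148 genes compared in vivo had a lower ratio.

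The same gene was lower in the FGOs of both cultured sources. iPSC-derived GROs stood at 9.50 pooled CPM (oocytes 1.81 to 21.5, median 9.14) and iPSC-derived FGOs at 3.09 (0.588 to 4.93, median 3.30), a log2 ratio of -1.48 with 5 of 24 FGOs below every GRO. Gonad-derived GROs stood at 10.4 pooled CPM and gonad-derived FGOs at 5.13, a log2 ratio of -0.95 with overlapping interquartile ranges. A single gonad-derived GRO, the oocyte numbered 7, had 63.4 CPM of Itpr3 from 383 reads, against a group median of 8.44 and a next highest value of 21.3. Without it the pooled level of gonad-derived GROs was 8.25 CPM and the log2 ratio of growth in the gonad-derived source was -0.64. Between GRO groups, Itpr3 was lower in gonad-derived than in in vivo oocytes (log2 ratio -0.78, or -1.09 without that oocyte). The ratio of iPSC-derived over gonad-derived GROs was -0.12, and it was 0.19 without the oocyte numbered 7. Exons of Itpr3os overlap those of Itpr3 on the opposite strand and Mir7677 lies within them on the same strand, and the use of strand in the counting is not stated, so reads of Itpr3 and Itpr3os cannot be told apart.

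Itpr2 was higher in FGOs of each source, as was the granulosa sum. In vivo its pooled level was 197 CPM in GROs (oocytes 121 to 321, median 191) and 289 CPM in FGOs (234 to 339, median 292), a 1.47-fold difference with separate interquartile ranges. Gonad-derived oocytes went from 192 pooled CPM in GROs to 311 in FGOs, a log2 ratio of 0.69, again with separate interquartile ranges. iPSC-derived oocytes went from 184 to 217 pooled CPM, a log2 ratio of 0.24, and here the interquartile ranges overlapped. The 3 GRO groups were not told apart in Itpr2, with medians of 182, 183 and 191 CPM. Among FGOs the iPSC-derived group stood lowest, 9 of its 24 oocytes lay below every gonad-derived FGO, and its log2 ratio over that group was -0.51. The other 3 FGO groups, at 289, 311 and 325 pooled CPM, overlapped in their interquartile ranges. The correlation of Itpr2 with the granulosa sum was 0.45 to 0.60 within the 3 GRO groups and -0.12 to 0.18 within the 4 FGO groups. Cyp19a1 and Nr5a2 made up 82.9% to 92.1% of the pooled sum in those GRO groups, so it mainly follows these genes. The part of other cells in the Itpr2 reads was not tested.

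The largest differences of Itpr1 lay between sources. Its growth ratio in vivo (-0.42) was nonetheless larger in size than that of gonad-derived over in vivo GROs. Its pooled level was 11.3 CPM in iPSC-derived GROs (oocytes 6.31 to 16.1, median 11.2), 16.6 in gonad-derived GROs (11.0 to 20.2, median 16.5) and 22.0 in in vivo GROs (14.5 to 35.6, median 19.5). iPSC-derived and gonad-derived GROs had separate interquartile ranges, and 11 of the 23 iPSC-derived GROs lay below every gonad-derived GRO (log2 ratio -0.54). Gonad-derived and in vivo GROs overlapped in theirs (-0.39). Among FGOs the pooled levels were 8.86 CPM in the iPSC-derived group (5.25 to 13.4, median 8.51), 15.3 in the gonad-derived group (8.05 to 33.4, median 15.1), 10.6 in the 6 dpp group (6.35 to 16.9, median 10.3) and 16.3 in vivo (12.3 to 23.8, median 16.0). So 2 FGO groups were low and 2 were high, and the 6 dpp group, which had IVG alone, was among the low ones.

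The 6 dpp FGOs were lower in Itpr1 than in vivo FGOs by 0.60 on the log2 scale, and 18 of 24 lay below every in vivo FGO. Gonad-derived FGOs, which had both IVD and IVG, were higher than 6 dpp FGOs by 0.51, and 6.72% of the 13582 genes compared had a higher ratio. iPSC-derived FGOs were lower than gonad-derived FGOs (-0.76), with 10 of 24 below every oocyte of that group. In all 3 comparisons the interquartile ranges were separate. Growth ratios of Itpr1 were smaller, at -0.42 in vivo, -0.33 for the iPSC source and -0.12 for the gonad source, with overlapping interquartile ranges. Exons of the predicted genes Gm44040 and Gm44101 overlap those of Itpr1 on the opposite strand.

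Trpm7 and Cacna1h encode channels that let calcium across the plasma membrane, the first a channel with a kinase domain and the second a voltage-gated channel of the T type. Trpm7 was low in both iPSC-derived groups. Its pooled level was 13.6 CPM in iPSC-derived GROs (oocytes 8.72 to 20.9), 20.8 in gonad-derived GROs (15.5 to 31.6, median 19.9) and 21.5 in in vivo GROs (13.7 to 32.3, median 19.1). Of the 23 iPSC-derived GROs, 16 lay below every gonad-derived GRO, the interquartile ranges were separate and the log2 ratio was -0.59. In FGOs it was 14.9 pooled CPM in the iPSC-derived group and 25.8 in the gonad-derived group (log2 ratio -0.77), but single oocytes spread widely, from 4.26 to 33.9 and from 8.39 to 72.9 CPM, and the interquartile ranges overlapped. In iPSC-derived FGOs Trpm7 was correlated with library size at 0.63 over 24 oocytes, and the part of depth in its level was not tested. The 6 dpp FGOs were at 27.3 and in vivo FGOs at 33.7 pooled CPM, a log2 ratio of -0.30 within the spread of oocytes. The growth ratio of Trpm7 was 0.64 in vivo, 0.30 for the gonad source and 0.13 for the iPSC source, with overlapping interquartile ranges in all 3.

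Cacna1h was highest in in vivo GROs, at 47.9 pooled CPM (oocytes 21.4 to 91.8, median 41.8). It was at 29.4 in gonad-derived GROs (18.2 to 53.6, median 28.5) and at 24.2 in iPSC-derived GROs (13.6 to 45.2, median 23.0), and the interquartile range of in vivo GROs was separate from that of gonad-derived GROs (log2 ratio -0.70). The 4 FGO groups lay between 19.5 and 26.6 pooled CPM. In vivo FGOs, at 23.0 (11.5 to 46.9, median 21.8), were 2.08-fold lower than in vivo GROs, and 10 of 20 lay below every in vivo GRO. That ratio of -1.04 stood close to the limit of 2-fold, and leaving out any 1 of the in vivo GROs numbered 17, 20 and 21 brought it to -0.992, -0.999 and -0.996, just short of it. The growth ratios of the cultured sources were nearer to 0, at -0.31 for iPSC-derived and -0.14 for gonad-derived oocytes. Exons of Tpsg1 overlap those of Cacna1h on the opposite strand.

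Stim1 encodes the calcium sensor of the store and Orai1 the pore that it opens in the plasma membrane. The pair was unequal in level. Orai1 lay between 123 and 186 pooled CPM, while Stim1 lay between 0.0481 and 0.538, which came from 8 to 87 reads per group. At this depth Stim1 had at least 1 read in 61 of the 71 GROs and in 34 of the 92 FGOs. In GROs its pooled level was 0.420 CPM in the iPSC-derived, 0.407 in the gonad-derived and 0.538 in the in vivo group, with intervals that overlapped. FGOs were lower in pooled level, at 0.145 (interval 0.0897 to 0.221) in vivo, 0.213 (0.148 to 0.298) in the 6 dpp group, 0.135 (0.0849 to 0.205) in the gonad-derived group and 0.0481 (0.0208 to 0.0949) in the iPSC-derived group.

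Of the 34 Stim1 reads in 6 dpp FGOs, 17 came from the oocyte numbered 12, the one with 1593 CPM of granulosa markers and 816 CPM of theca and stroma markers. Without that oocyte the pooled level of the 6 dpp FGOs was 0.111 CPM. The next highest Stim1 value among FGOs, 1.05 CPM from 8 reads, was in the gonad-derived FGO numbered 18, which had the highest granulosa sum of its group at 148 CPM. Among 6 dpp FGOs the correlation of Stim1 with the granulosa sum was 0.81 over 24 oocytes and 0.33 without the oocyte numbered 12 (0.46 with the sum of the 8 markers other than Cyp19a1 and Nr5a2). It was 0.10, 0.38 and 0.38 in the iPSC-derived, gonad-derived and in vivo FGOs. The part of other cells in the Stim1 reads was not tested. In the 3 GRO groups these correlations lay between -0.48 and -0.17. Growth ratios of Stim1 were -0.69 in vivo and -0.51 for the gonad source, and the pseudocount limits these values. Without it, the pooled level of in vivo FGOs was 3.71-fold and that of gonad-derived FGOs 3.01-fold below that of the GROs. In the iPSC source, where Stim1 did not pass the expression filter, the ratio was -0.75, from 69 reads in GROs and 8 in FGOs, which is 8.71-fold without the pseudocount.

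**Figure D3:**
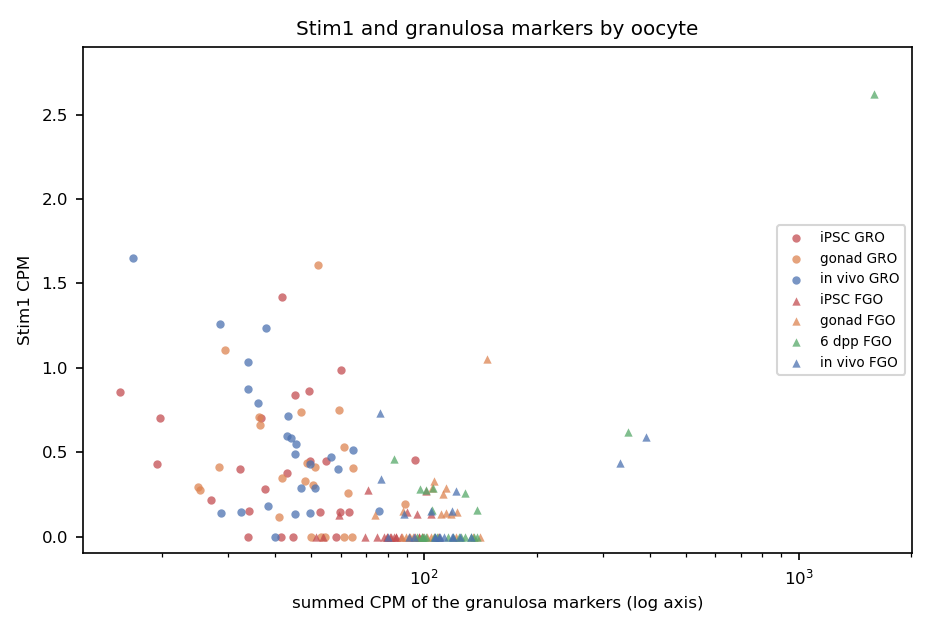
Stim1 CPM (y axis) against the summed CPM of 10 granulosa markers (x axis, log scale) in each oocyte, with circles for GROs and triangles for FGOs coloured by source. The 6 dpp FGO at the top right has 2.62 CPM of Stim1 and a granulosa sum of 1593 CPM, and most oocytes with Stim1 above 0.5 CPM are GROs with low granulosa sums.

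Orai1 was lower in FGOs than in GROs in vivo. Its pooled level was 182 CPM in in vivo GROs (oocytes 105 to 239, median 185) and 123 in in vivo FGOs (82.9 to 175, median 118), a 1.48-fold difference with separate interquartile ranges. For iPSC-derived and gonad-derived oocytes the growth ratios were -0.21 and -0.22, with overlapping interquartile ranges. Gonad-derived FGOs had 159 pooled CPM and 6 dpp FGOs 125, and 12 of 24 gonad-derived FGOs lay above every 6 dpp FGO, although the interquartile ranges still overlapped. Exons of Gm2479 overlap those of Orai1 on the opposite strand.

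Atp2a2 encodes the SERCA pump that refills the store. It was at 76.2 pooled CPM in iPSC-derived GROs (oocytes 47.7 to 110.2, median 73.1), 70.6 in gonad-derived GROs (56.2 to 88.9, median 70.5) and 116 in in vivo GROs (70.2 to 208, median 101). The cultured GROs were therefore low, 12 of the 24 gonad-derived GROs lay below every in vivo GRO, and the log2 ratio between these groups was -0.71. In FGOs the 4 groups were close to each other, between 103 and 119 pooled CPM. The growth ratio was 0.54 for the gonad source, where 22 of 24 FGOs lay above every GRO, and 0.48 for the iPSC source, both with separate interquartile ranges. In vivo it was 0.04. Exons of Gm43361 overlap those of Atp2a2 on the opposite strand.

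Camk2g encodes the gamma form of calmodulin-dependent kinase II, the form that mouse eggs use to leave metaphase arrest. Its pooled level was higher at each step over the GRO groups, from 278 CPM in iPSC-derived (oocytes 195 to 360, median 279) through 367 in gonad-derived (309 to 426, median 367) to 444 in in vivo GROs (357 to 500, median 445). The interquartile ranges of neighbouring groups were separate at both steps. Of the 23 iPSC-derived GROs, 19 lay below every gonad-derived GRO (log2 ratio -0.40), and 11 of the 24 gonad-derived GROs lay below every in vivo GRO (-0.27). FGOs stood at 473 pooled CPM in vivo, 471 in the iPSC-derived, 529 in the gonad-derived and 546 in the 6 dpp group. Of the 24 6 dpp FGOs, 15 lay above every in vivo FGO, with a log2 ratio of 0.21 and separate interquartile ranges.

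The growth ratio of Camk2g was 0.76 for iPSC-derived, 0.53 for gonad-derived and 0.09 for in vivo oocytes. Growth of Camk2g in the iPSC source was the only case among the 9 genes and 8 comparisons in which the oocytes of the groups did not overlap. All 24 iPSC-derived FGOs, from 377 CPM up, lay above all 23 iPSC-derived GROs, up to 360 CPM, and 2.39% of the 13115 genes compared in that source had FGOs wholly above GROs. Over the 8 comparisons and both directions, 0% to 5.62% of all genes had oocytes that did not overlap. In the gonad source 21 of 24 FGOs lay above every GRO, and in vivo 5 of 20 did.

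**Figure D4:**
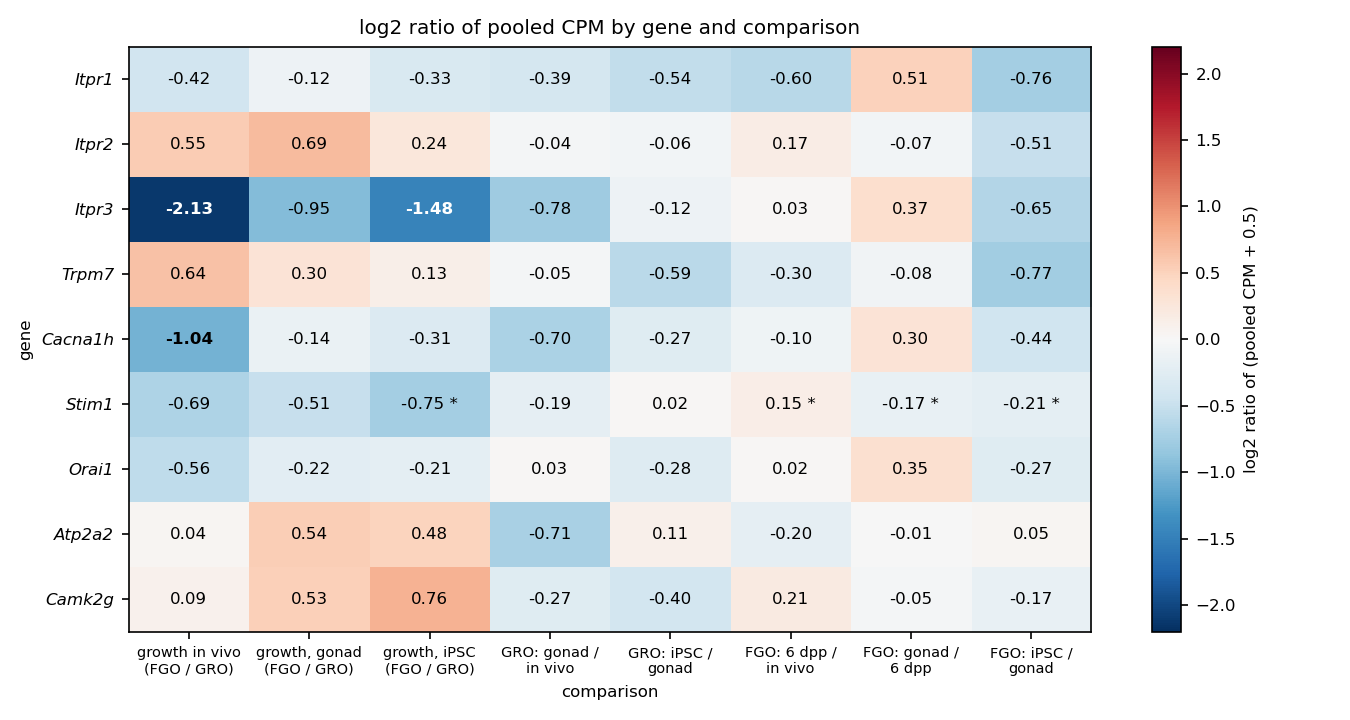
log2 ratio of (pooled CPM + 0.5) for the 9 genes (rows) in the 8 comparisons (columns), coloured from blue (lower in the first group) to red (higher), with bold for values past 2-fold and an asterisk where the gene did not pass the expression filter. Bold values stand for Itpr3 in 2 growth columns, at -2.13 and -1.48, and for Cacna1h in growth in vivo, at -1.04. No value is bold in the columns between sources, which leave out iPSC-derived against in vivo oocytes.

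By size, few of the members differed between stages, and none did in the 5 comparisons between sources. Those 5 do not set iPSC-derived against in vivo oocytes. In that pairing Trpm7 was more than 2-fold apart in FGOs, at 14.9 pooled CPM in the iPSC-derived and 33.7 in the in vivo group. The share of all genes past 2-fold was not computed for it. Growth in vivo left 2 of 9 members at least 2-fold lower in FGOs, Itpr3 and Cacna1h, and 0 higher, where 13.2% of the 13148 genes were that much lower and 10.4% higher. Only Itpr3 passed 4-fold, as did 1.95% of all genes in that direction. Growth in the iPSC source left 1 of 8 members at least 2-fold lower, Itpr3, against 15.3% of the 13115 genes, and 0 higher against 6.69%. In the gonad source 0 of 9 passed 2-fold, against 9.98% of the 13068 genes lower and 5.82% higher. Stim1 had too few reads to enter where 8 are given, since a gene entered when its CPM was above 1 in at least 3 oocytes.

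Between sources 0 members passed 2-fold in any of the 5 comparisons. The background was 1.98% of genes higher and 1.75% lower for iPSC-derived over gonad-derived GROs, 4.18% and 2.70% for gonad-derived over in vivo GROs, 2.19% and 3.74% for iPSC-derived over gonad-derived FGOs, 1.58% and 0.95% for gonad-derived over 6 dpp FGOs, and 1.22% and 2.97% for 6 dpp over in vivo FGOs. The median log2 ratio of the members was -0.27 for iPSC-derived over gonad-derived GROs, where the median of all genes was -0.00455, and -0.27 for gonad-derived over in vivo GROs, where it was -0.03. It was -0.48 for iPSC-derived over gonad-derived FGOs (all genes -0.08), 0.15 for gonad-derived over 6 dpp FGOs (0.02) and -0.04 for 6 dpp over in vivo FGOs (-0.04). For growth the members had medians of -0.42 in vivo, -0.04 in the iPSC source and -0.12 in the gonad source, beside -0.11, -0.11 and -0.05 for all genes.

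Measured against the spread of oocytes, 3 members were lower with separate interquartile ranges in iPSC-derived than in gonad-derived GROs (Itpr1, Trpm7 and Camk2g), as were 6.69% of all genes. Gonad-derived GROs were lower than in vivo GROs in 4 members by that measure (Itpr3, Cacna1h, Atp2a2 and Camk2g), against 9.99% of all genes, and iPSC-derived FGOs were lower than gonad-derived FGOs in 2 (Itpr1 and Itpr2), against 14.1%. No member was higher by that measure in these 3 comparisons, where 7.31%, 10.9% and 9.56% of genes were. Gonad-derived FGOs were higher than 6 dpp FGOs in 1 (Itpr1, against 4.01% of genes) and lower in 0 (3.83%), and 6 dpp FGOs were higher than in vivo FGOs in 1 (Camk2g, 11.6%) and lower in 1 (Itpr1, 12.1%). For growth, 1 member was higher (Itpr2, 23.8%) and 3 lower (Itpr3, Cacna1h and Orai1, 27.9%) in vivo, 2 were higher (Atp2a2 and Camk2g, 19.8%) and 1 lower (Itpr3, 29.5%) in the iPSC source, and 3 were higher (Itpr2, Atp2a2 and Camk2g, 19.3%) and 1 lower (Stim1, 23.1%) in the gonad source. The quartiles of Stim1 that separated there, 0.146 and 0.174 CPM, are each about 1 read in a library, so that no difference in level is read from them. Comparisons that name the same group share its oocytes and are not independent of each other. In vivo GROs were smaller than cultured GROs by the paper's account, and the part of size in these differences was not tested.

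In the order of the 7 groups, most neighbours were not told apart beyond the spread of their oocytes. Camk2g ran from iPSC-derived GROs through gonad-derived GROs to in vivo GROs with separate interquartile ranges at both steps, and the steps after that overlapped. Itpr3 and Cacna1h each had 1 separate step, between gonad-derived GROs and the top group, in vivo GROs. Itpr2 had 1 between iPSC-derived FGOs and the other 3 FGO groups, and Atp2a2 had 1 above the pair of cultured GRO groups. In Itpr1, Trpm7, Stim1 and Orai1 each group overlapped with its neighbour throughout.

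In vivo GROs were the most spread group for Cacna1h and Atp2a2, and high values of these genes and of Itpr1 often came in the same oocytes. Of 24 in vivo GROs, 10 lay above all 47 cultured GROs in Itpr1, 10 in Atp2a2 and 7 in Cacna1h, and 6 did so in all 3. Camk2g had more such oocytes, 18 of 24, but not the same link, with correlations of 0.03 with Itpr1, 0.18 with Cacna1h and -0.02 with Atp2a2 in this group. Within this group the correlation over oocytes of log2(CPM + 0.5) was 0.85 for Itpr1 and Atp2a2, 0.78 for Itpr1 and Cacna1h and 0.75 for Cacna1h and Atp2a2. In the other 6 groups these correlations lay between -0.14 and 0.50. The same 3 genes had correlations of -0.12 to -0.26 with library size in the in vivo GROs. Itpr3, high in the same group, had correlations of -0.09 with Itpr1, -0.23 with Cacna1h and 0.17 with Atp2a2.

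The gonad-derived FGO numbered 19 stood apart in 5 of the 9 genes. It had the highest Itpr1 (33.4 CPM), Itpr2 (542 CPM), Trpm7 (72.9 CPM) and Camk2g (976 CPM) of its group, where the other 23 oocytes reached at most 20.2, 371, 52.6 and 589. Orai1 was at 9.92 CPM from 69 reads in that oocyte, against 116 to 214 in the others. Its library held 6954842 reads, and its granulosa sum of 105 CPM ranked 14th in the group. Its sum of 5 blood and endothelium markers was the highest of the group at 227 CPM against a median of 148. Pecam1 alone held 148.7 of the 148.8 pooled CPM of that sum. This gene lay between 67.0 and 148.7 pooled CPM in all 7 groups, so the sum is not read as a sign of other cells. Orai1 and Camk2g were correlated at -0.74 over the gonad-derived FGOs, and at 0.06 without this oocyte. In 6 dpp and in vivo FGOs the correlation of these genes was -0.59 and -0.49, in iPSC-derived FGOs -0.06, and in the 3 GRO groups 0.02 to 0.39. These are descriptions of oocytes that share a source and a range of depth.

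Over the oocytes of all 7 groups, the gene most like Camk2g in pattern was Sfmbt1, with a correlation of log2(CPM + 0.5) of 0.89, among 9835 genes that reached 5 pooled CPM in some group. Once each group was centred on its mean, this was 0.47. For Orai1 the values stayed close, since its nearest genes Nop9, Mlycd and Wdr18 had 0.76, 0.76 and 0.74 before centring and 0.75, 0.71 and 0.74 after it. The nearest gene of Cacna1h was Sbf1 (0.82, then 0.69), of Itpr1 Afdn (0.78, then 0.53), of Atp2a2 Plekha8 (0.76, then 0.58) and of Itpr3 Abca2 (0.76, then 0.45). Itpr2 was nearest to Sspn (0.73, then 0.39), Trpm7 to Maob (0.67, then 0.41) and Stim1 to Cttn (0.65, then 0.44). Among the members themselves the highest values were 0.61 for Itpr1 and Cacna1h (0.33 after centring) and 0.56 for Itpr2 and Camk2g (0.19), and the lowest was -0.45 for Itpr2 and Itpr3 (-0.25).

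Around the members, 134 further genes of calcium handling were listed by role, of which 125 were in the table. Growth in vivo brought 93 of them into the comparison, with 13 at least 2-fold higher and 14 lower in FGOs, beside 10.4% and 13.2% of all genes. Among those that reached 5 pooled CPM in the higher group, the limit for naming a gene here, entry channels had the largest ratios on the higher side, namely Trpa1 (35.2 against 5.76 pooled CPM), Trpv2 (19.0 against 3.76) and Trpm6 (14.5 against 3.10). The lower side was led within the same limit by the kinase gene Camk1 (2.86 against 12.1), by Tmem165, a Golgi transporter gene (7.75 against 25.5), and by Stimate, a regulator of STIM proteins (7.84 against 21.1). In the iPSC source 4 of 94 were higher and 17 lower (6.69% and 15.3% of all genes), and in the gonad source 7 of 96 and 8 (5.82% and 9.98%). Mcu, the pore of the mitochondrial calcium uniporter, was higher in the FGOs of each of the 3 sources, with log2 ratios of 1.51 in vivo, 1.22 for the iPSC source and 1.05 for the gonad source. Wee2 and Fbxo43, which hold the oocyte and the egg in arrest, were higher by 0.63 to 0.75 and by 0.89 to 0.92.

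Within the limit of 5 pooled CPM, the largest growth ratios of the iPSC source were Trpa1 (2.01) and Plce1 (1.05), a phospholipase gene, upward beside Mcu, and the kinase gene Prkcd (-2.21), Stimate (-1.96) and Irag1 (-1.90), a partner of the IP3 receptor, downward. Within it, those of the gonad source were Trpv4 (1.87), Trpm6 (1.58) and Trpv2 (1.33) upward, and Stimate (-1.59), Prkcd (-1.55) and Itpripl1 (-1.44) downward.

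Between sources few of these genes were 2-fold apart. iPSC-derived over gonad-derived GROs had 3 of 100 higher and 1 lower (1.98% and 1.75% of all genes), and the same contrast in FGOs had 3 of 96 higher and 5 lower (2.19% and 3.74%). Mcub, a subunit that dampens the mitochondrial uniporter, was higher in iPSC-derived oocytes at both stages, at 161 against 49.9 pooled CPM in GROs and at 173 against 38.5 in FGOs. Ppp3ca, a catalytic subunit of calcineurin, was at 25.3 against 9.09 in GROs and at 41.4 against 11.0 in FGOs. In FGOs Cabp1, which binds calcium and the IP3 receptor, was higher as well (44 against 20.7), whereas Trpm6 (2.76 against 12.2), Trpv4 (8.17 against 23.1) and Ppp3cc (9.92 against 22.5) were lower.

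Gonad-derived over in vivo GROs had 2 of 100 higher and 0 lower (4.18% and 2.70% of all genes). Gonad-derived over 6 dpp FGOs had 3 of 96 higher and 0 lower (1.58% and 0.95%), among them Camk4 (12.4 against 5.82 pooled CPM). The 6 dpp over in vivo FGOs had 2 of 96 higher and 4 lower (1.22% and 2.97%). Orai3, a relative of Orai1, was at 11.6 against 3.88 pooled CPM and Trpv4 at 16.8 against 7.34 in that contrast. The chaperone genes of the store Hspa5 (259 against 651) and Pdia3 (142 against 285) were on the lower side.

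The other forms of the members' own families were at low levels, with exceptions. The SERCA genes Atp2a1 and Atp2a3 stayed at or under 0.204 pooled CPM in every group, and the CaMKII genes Camk2a, Camk2b and Camk2d at or under 0.815. Orai2 was at or under 0.414, whereas Stim2 lay between 30.0 and 53.9 pooled CPM, so that of the STIM genes it was Stim2 that had most reads per length in all 7 groups. Of other calcium channels, Ryr2 lay between 1.38 and 2.70 pooled CPM, Trpv3 between 6.90 and 10.6 and Cacna1g between 0.389 and 1.49. The T-type gene Cacna1i lay between 4.16 and 10.8 pooled CPM and the L-type gene Cacna1d between 11.8 and 41.5, and both were picked for mention after their values were seen. Atp2b1, a pump of the plasma membrane, was at 63.3 to 102 pooled CPM in GROs and at 106 to 149 in FGOs. Ratios of these genes past 2-fold between stages were those of Mcu and, lower in FGOs, of Cacna1d and Cacna1i. Cacna1d was at 18.0 in FGOs against 41.5 pooled CPM in GROs in vivo, and at 13.6 against 31.2 in the iPSC source. Cacna1i was at 5.15 against 10.8 in vivo. Between sources they were those of Orai3 in 6 dpp over in vivo FGOs and of Cacna1g in gonad-derived over 6 dpp FGOs. For Cacna1g the ratio was 1.16, from 1.49 against 0.389 pooled CPM, while the medians over oocytes were 0.571 and 0.412 CPM. Plcz1, the sperm phospholipase gene, had no matched row and was not analysed here.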

How the data were processed

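The deposited table holds raw counts of reads, 1 row per gene and 1 column per oocyte, and an exonic length in bases for each gene. By the labels and the paper's methods, reads were aligned with STAR to GRCm38/mm10 plus spike-in sequences, and the authors counted uniquely mapped exonic reads with QuasR for 1 randomly chosen transcript per gene, with no normalization. The use of strand is not given in the sources used here. No deposited column was left unmapped (0).

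Of 21950 genes, 21907 matched RefSeq (GRCm38.p6) for symbols and coordinates. Exon overlaps came from GENCODE M21. Counts were summed by group and scaled to CPM with pandas 2.3.3. Ratios are log2 of (pooled CPM + 0.5), which understates differences of low genes. A gene entered where 3 or more oocytes exceeded 1 CPM, counted over the stage, or for growth over both groups compared. The size rule was 2-fold, and the 4-fold of the study was an alternative. Because the labels name no animal or culture, oocytes were not treated as replicates and no test was run. Scaling factors came from edgeR 4.0.16. Ratios were tested on simulated data.

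The members and lists were chosen with earlier results of these data known. All 9 members are named. Listed genes are named at 2-fold where the higher group reached 5 pooled CPM, at most 3 per comparison and direction, and 16 more were named whatever their values. Correlations are Pearson's r. Alternatives were the pseudocount, scaling, oocyte choice, filter and fold.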

Additional observations from a re-analysis of the deposited data

How the results depend on the processing

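No paired analysis was possible because the results come from no test, and the oocyte numbers in the labels name single oocytes. The count of members at least 2-fold lower in growth in vivo was 2, and it was 1 with a pseudocount of 2 CPM, with TMM factors, with median-of-ratios size factors, with medians over oocytes and with the 4-fold rule, Cacna1h being the gene that no longer passed. It was 3 with a pseudocount of 0.1 CPM, with Stim1 added. Growth in the iPSC source went from 1 to 0 with the 4-fold rule. Growth in the gonad source went from 0 to 2 with a pseudocount of 0.1 CPM (Itpr3 and Stim1). Leaving out 1 oocyte at a time gave 1 to 2 for growth in vivo, 0 to 1 for growth in the gonad source, and 0 to 1 for gonad-derived over in vivo GROs, where leaving out the gonad-derived GRO numbered 7, chosen after seeing the data, gave 1. Itpr3 in growth of the gonad source passed 2-fold without the FGO numbered 17 (log2 ratio -1.06), the FGO numbered 18 or the GRO numbered 1 (-1.01). No ratio past 2-fold changed sign in any alternative. Scaling by TMM moved 72 member ratios by at most 0.17 and changed the sign of 0, and medians over oocytes changed the sign of 7. Keeping the oocytes that the study used after its choice by size moved them by at most 0.28, changed the sign of 3 and left the counts past 2-fold as they were. The median ratio of all genes in the iPSC growth comparison moved from -0.11 to 0.03 with TMM, so growth ratios there are relative to that shift. Without the 6 dpp FGO numbered 12, 2 of 18 ratios changed sign, and without the gonad-derived FGO numbered 19, 0 of 27 did. The 2 shallowest libraries moved no ratio by more than 0.03. Stim1, with 8 to 87 reads per group, is the member with the least depth.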
